A study of Mus musculus with 14 samples.

Results

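The deadenylation and mRNA decay machinery was followed here as 46 listed genes, all of which had a row among the 55416 genes of the deposited count table and all of which passed the filter on low counts that left 18430 genes for testing. The list was drawn up by function: 7 scaffold and regulatory subunits of the CCR4-NOT complex, 4 catalytic subunits, 4 TOB/BTG adaptors, 4 other deadenylase genes, 8 decapping genes, 2 exonucleases that work from the 5′ end, 11 genes of the RNA exosome and 6 genes of nonsense-mediated decay. Its members were chosen with earlier results of these data known, so their shares set beside all genes are descriptions. Treated cells were given STM2457, a small-molecule inhibitor of the m6A methyltransferase METTL3, at 50 µM for 12 h, and control cells were given the solvent DMSO. Wild-type XEN cells, stem cells of the extraembryonic endoderm, were sequenced as 3 libraries per arm. Wild-type TSC, the trophoblast stem cells, and EpiSC, the epiblast stem cells of genotype XmolXmus-ΔTsix, were each sequenced as 2 libraries per arm. All 3 are labelled as hybrids of Mus molossinus and Mus musculus, and each line had its own medium: XEN grew in DMEM with serum, TSC in RPMI conditioned by embryonic fibroblasts with serum and Fgf4, and EpiSC in serum-free medium with Fgf2 and Activin A. Line, genotype of the EpiSC and medium cannot be told apart.

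Most mRNAs are degraded in steps. Deadenylases shorten the poly(A) tail, with PAN2-PAN3 acting on long tails and CCR4-NOT carrying the bulk of the work. The shortened mRNA is then either decapped by DCP2 and digested from the 5′ end by XRN1, or digested from the other end by the RNA exosome. m6A feeds into this route, since the reader YTHDF2 binds methylated mRNAs and brings CCR4-NOT to them through its scaffold subunit CNOT1. Nonsense-mediated decay uses the same nucleases for mRNAs with premature stop codons.

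Library totals were 6826496 to 10024628 counts per XEN library, while TSC and EpiSC libraries held 17909934 to 21097380. The 46 genes together took 0.345% to 0.442% of the counts in XEN, 0.392% to 0.413% in TSC and 0.417% to 0.427% in EpiSC. Levels are CPM, counts scaled to library sizes adjusted by edgeR's TMM factors. Replicates are not labelled as separate cultures, so the p-values rest on sample-to-sample spread that may be technical. Replicates differed more in XEN, where a chi-square of counts between replicates was 9.30 to 24.1 per degree of freedom, against 2.20 to 5.10 in TSC and EpiSC. Markers fixed for the 3 lineages marked the lines as labelled: 6 endoderm markers summed to 2747 to 2988 CPM with STM2457 and 2633 to 2749 CPM with DMSO in XEN, 5 trophoblast markers to 1037 to 1047 and 1023 to 1091 CPM in TSC, and 6 epiblast markers to 878 to 985 and 1048 to 1106 CPM in EpiSC. In TSC the epiblast markers summed to 272 to 273 CPM with STM2457 and 270.4 to 288 CPM with DMSO. Nearly all of the TSC sum was Sox2, at 271 and 270 CPM with STM2457 and 286 and 269 CPM with DMSO, and Pou5f1 had 0 counts there. Between the EpiSC arms the sums did not overlap: Pou5f1 stood at 519 and 597 CPM with STM2457 against 714 and 742 CPM with DMSO, and Fgf5 at 78.2 and 87.9 against 42.7 and 56.0 CPM. Otx2 was lower with STM2457 than with DMSO in EpiSC without overlap, while Nanog, Nodal and Sox2 overlapped. The part of this in the EpiSC results was not tested. Of fibroblast markers, 6 summed to 40.2 to 42.2 CPM with STM2457 and 47.4 to 53.2 CPM with DMSO in EpiSC and to at most 2.20 CPM elsewhere. Most of the EpiSC sum was Col1a1, at 19.8 and 17.1 CPM with STM2457 and 29.6 and 24.7 CPM with DMSO, and Col1a2, at 15.3 to 17.6 CPM. Postn stood at 3.73 to 5.23 CPM and Col3a1 at 1.29 to 1.94 CPM there, while Dcn reached only 0.141 and Lum 0.043 CPM. In bulk RNA, fewer cells of a type and less RNA per cell cannot be told apart.

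The first question was which decay genes responded to METTL3 inhibition. Nocturnin (Noct) rose in each of the 3 lines, and of the 46 genes it was the only one called in TSC and in EpiSC. Exosc4, a subunit of the exosome ring, rose in XEN. At an adjusted p under 0.05 by edgeR's quasi-likelihood test with Benjamini-Hochberg adjustment over all tested genes, 2 of the 46 genes rose and 0 fell in XEN, against 4.15% of all tested genes changed there (3.07% higher, 1.07% lower). Among the 46, 3 genes had a positive and 8 a negative fold change at an unadjusted p under 0.05 in XEN, where 9.82% and 7.51% of all tested genes did. DESeq2 called 3 of the 46 higher and 4 lower in XEN, against 4.83% and 3.79% of all tested genes. In TSC 1 of 46 was called against 0.966% of all tested genes (0.836% higher, 0.13% lower), and in EpiSC 1 of 46 against 1.68% (1.28% higher, 0.402% lower). The shares called by edgeR lie near those of all genes. In XEN, the falls at an unadjusted p under 0.05 and those called by DESeq2 took a larger share of the 46 than of all genes. This excess was not tested. The median log2 fold changes of the 46 genes were −0.09 in XEN, 0.01 in TSC and −0.03 in EpiSC, beside medians of 0 over all tested genes.

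With the 3 line effects averaged, 7 of the 46 genes were called, 2 higher and 5 lower, against 13.4% of all tested genes (7.78% higher, 5.62% lower). Noct and Exosc4 rose. Cnot10, Dcp1b, Xrn2, Exosc5 and Exosc10 fell, and these 5 members belong to CCR4-NOT, decapping, the nuclear exonuclease XRN2 and the exosome. Scaling to the counts of 80 ribosomal protein genes in place of TMM moved the median log2 fold change of all genes by −0.05 in XEN, 0.11 in TSC and 0.12 in EpiSC, and left 3 genes called in the mean, Noct, Exosc4 and Dis3l, all higher, with 0 lower. The 5 falls kept their sign under that scaling. In 2 genes, Noct and Exosc4, every STM2457 library lay above every DMSO library of its line in all 3 lines, as did 4.7% of all tested genes, and in 3 genes, Cnot10, Dcp1b and Xrn2, every one lay below, as did 2.89%. Within single lines, the arms did not overlap in 3 genes that lay higher and 6 that lay lower in XEN (8.36% and 7.03% of all tested genes), in 16 and 14 genes in TSC (27.9% and 27.8%) and in 16 and 19 genes in EpiSC (29.6% and 26.5%).

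The counts of calls depended on how the spread was estimated. Replicate numbers paired the XEN libraries, and with that pairing as a block in the XEN libraries 11 of the 46 genes were called in XEN (3 higher, 8 lower; 15.8% of all tested genes, 8.95% higher and 6.83% lower), 9 in TSC (2 higher, 7 lower; 8.52% and 6.83%), 6 in EpiSC (4 higher, 2 lower; 10% and 7.2%) and 18 in the mean (5 higher, 13 lower; 28.7%). In the mean that fit called 14.9% of all tested genes higher and 13.8% lower. The 3 that rose in XEN were Noct, Exosc4 and Exosc2, and the 8 that fell were Cnot1, Cnot2, Cnot3, Cnot10, Btg3, Dcp1b, Edc4 and Xrn2. With XEN fitted alone and the same block, a fit chosen after seeing the data, 2 of the 46 were called, Noct and Exosc4, against 11.4% of all tested genes (7.67% higher, 3.76% lower). Exosc2 and the 8 genes that fell were not called in XEN by that fit. Fitted on their own libraries, TSC gave 14 calls (6 higher, 8 lower; 30.2% of all tested genes) and EpiSC 17 (5 higher, 12 lower; 29.2%), whereas XEN without a block gave 0 (0.191% of all tested genes). Over all tested genes, 16.3% were called higher and 13.9% lower in TSC, and 15.2% and 14% in EpiSC. Whether falls were in excess among the 46 in any of these fits was not tested. Those fits of TSC and EpiSC have no library in common, and 11 genes were called in the same direction in each of them: Noct, Exosc4 and Dis3l higher, and Cnot1, Cnot10, Parn, Edc4, Xrn2, Exosc5, Exosc8 and Exosc10 lower. Only the TSC fit called Dcp1a, Edc3 and Smg6, all higher. Only the EpiSC fit called Btg1 and Exosc1 higher and Cnot3, Ddx6, Exosc7 and Exosc9 lower. These 11 were 78.6% of the TSC calls and 64.7% of the EpiSC calls among the 46 genes, beside 47.1% and 47.7% over all genes. Over all genes 2061 were called in the same direction in both and 72 in opposite directions, of which 0 were among the 46.

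**Figure D1:**
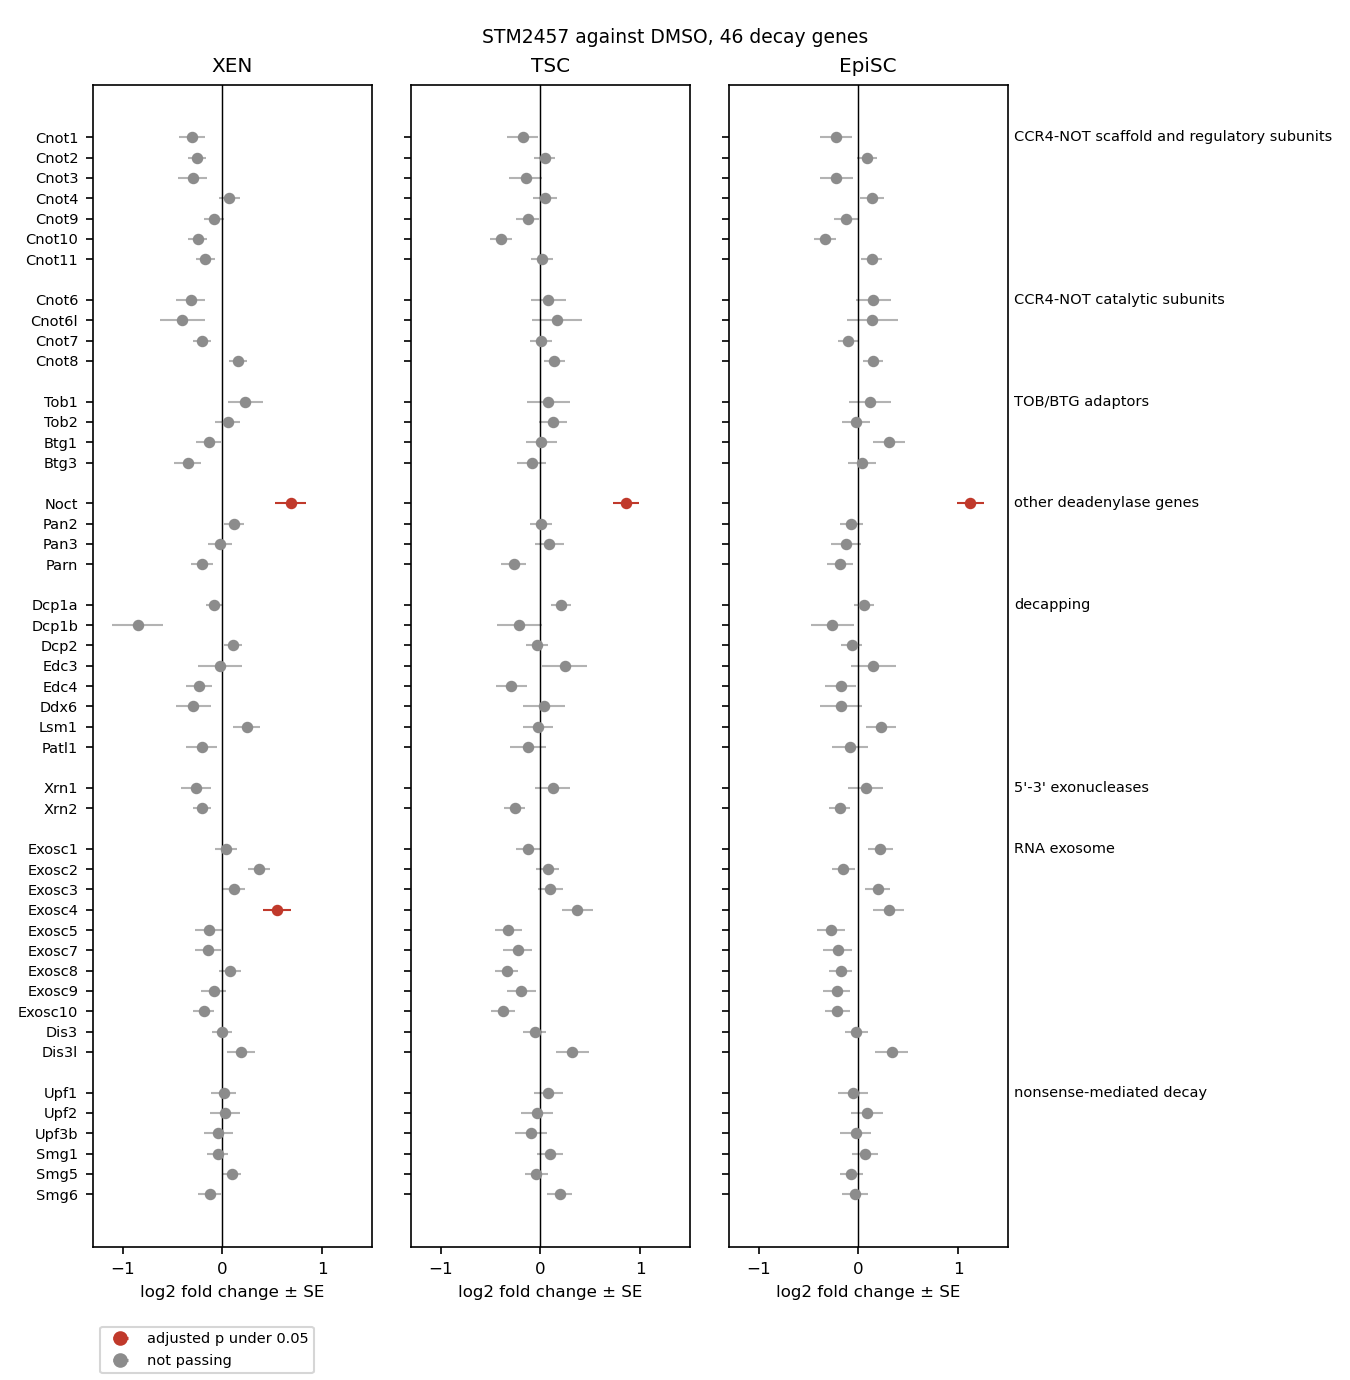
Log2 fold change ± SE of STM2457 against DMSO for each of the 46 genes, one panel per line (n = 3 libraries per arm in XEN, 2 in TSC and EpiSC), ordered by role. Red points passed the test at an adjusted p under 0.05: Noct in each line, at 0.68, 0.86 and 1.12, and Exosc4 in XEN at 0.55, and the other points are grey.

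Noct (chromosome 3) encodes nocturnin, a member of the CCR4 nuclease family known for its circadian rhythm in mouse liver, which was first described as a deadenylase and whose mammalian enzyme was later found to remove a phosphate from NADP(H). In EpiSC it stood at 119 and 115 CPM with STM2457, against 50.6 and 56.8 CPM with DMSO. In TSC it stood at 201 and 208 CPM with STM2457, against 121 and 105 CPM with DMSO. In XEN it was far lower, at 13.0, 14.2 and 9.76 CPM with STM2457, against 6.89, 8.91 and 7.32 CPM with DMSO. The arms did not overlap in any line. Noct rose by 1.12 ± 0.14 on the log2 scale in EpiSC (adjusted p = 0.000835), by 0.86 ± 0.13 in TSC (adjusted p = 0.00613) and by 0.68 ± 0.16 in XEN (adjusted p = 0.0204), all by edgeR's quasi-likelihood test. The mean over lines was 0.89 ± 0.08 (adjusted p = 5.37e-06). In all, 52 of the tested genes, 0.282%, were called higher in each of the 3 lines. The test of a difference in this rise between the lines did not pass (edgeR unadjusted p = 0.126). The EpiSC call was kept without any 1 library, with adjusted p up to 0.0392. In TSC it was lost without DMSO library 1, DMSO library 2, STM2457 library 1 or STM2457 library 2 (adjusted p = 0.0880, 0.226, 0.102 and 0.132), where the fold changes were 0.96, 0.76, 0.88 and 0.83. In XEN it was lost without DMSO library 1, DMSO library 3, STM2457 library 1 or STM2457 library 2 (adjusted p = 0.0546, 0.0812, 0.0722 and 0.0686), with fold changes of 0.62, 0.64, 0.64 and 0.58. Scaling to ribosomal protein genes gave 1.25 in EpiSC, 0.99 in TSC and 0.64 in XEN, and ended the XEN call (adjusted p = 0.21).

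The window upstream of Noct is shown because Noct was the member that rose in every line, and that of Cnot10 because it was the fall kept without any 1 library. Each sequence is the 250 bases before the gene's start, 5′ to 3′ on the gene's strand, from RefSeq on build GRCm38.p6; the counts were made on GRCm39, so these positions belong to the RefSeq table alone. The Noct window is chr3:51224197-51224446 on the plus strand and the Cnot10 window chr9:114640201-114640450 on the minus strand. Capitals mark matches, on either strand, to 4 motifs: the GC box GGGCGG, the CCAAT box CCAAT, the cAMP-response half-site TGACG and the E-box CACGTG.
Noct: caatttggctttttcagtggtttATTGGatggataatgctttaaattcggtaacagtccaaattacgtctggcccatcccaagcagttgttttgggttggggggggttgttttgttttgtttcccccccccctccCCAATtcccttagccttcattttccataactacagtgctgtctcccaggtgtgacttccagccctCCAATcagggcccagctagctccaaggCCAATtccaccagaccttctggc
Cnot10: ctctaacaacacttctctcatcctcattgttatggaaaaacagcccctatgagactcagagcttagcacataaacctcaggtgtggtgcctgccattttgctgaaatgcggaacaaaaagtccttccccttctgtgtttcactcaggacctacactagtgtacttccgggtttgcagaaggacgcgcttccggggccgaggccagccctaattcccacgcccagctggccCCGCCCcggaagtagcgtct
Noct held 4 CCAAT matches, 1 of them on the other strand, and no match to the other 3 motifs. Of 32851 RefSeq promoter windows of that length, 33.8% held at least 1 CCAAT match and 0.840% held 4 or more. Cnot10 held 1 GC box, read on the other strand, as 32.7% of windows did, and none of the other motifs. No matches overlapped each other. TGACG was found in 17.8% and CACGTG in 6.02% of all windows. Promoter windows were in the table for 39 of the 46 genes, 48 windows in all, of which 33 held a GC box, 16 a CCAAT box, 13 a TGACG and 2 a CACGTG. These matches are descriptions of letters, not sites.

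The other deadenylase genes did not pass in any line with all lines fitted together and no block. Pan2 and Pan3 encode the nuclease and the adaptor of the complex that trims long tails, and their fold changes lay between −0.13 and 0.12 over the lines. Parn, which encodes a deadenylase that also matures small noncoding RNAs, had fold changes of −0.20 in XEN, −0.27 in TSC and −0.18 in EpiSC, and a mean of −0.22 (edgeR adjusted p = 0.0509). Its STM2457 libraries lay below its DMSO libraries in TSC, at 76.9 and 74.2 against 89.7 and 92.4 CPM, and in EpiSC, at 50.2 and 52.8 against 58.6 and 58.5 CPM. In XEN the arms overlapped, at 67.5, 68.9 and 63.7 CPM with STM2457 and 71.1, 92.9 and 67.0 CPM with DMSO. With the block in the XEN libraries, the mean of Parn was called lower (adjusted p = 0.000576).

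**Figure D2:**
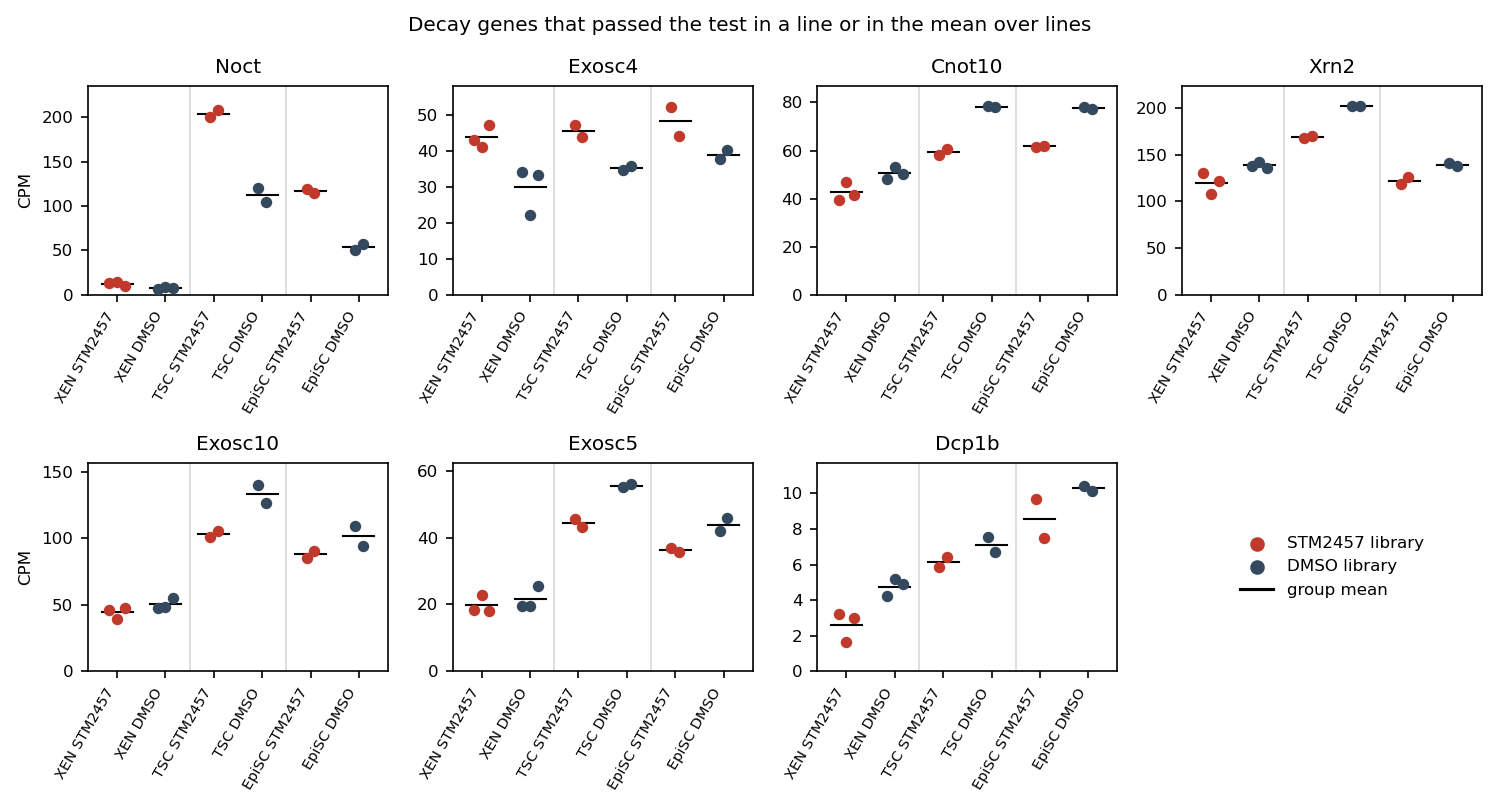
CPM of each library for the 7 decay genes called in a line or in the mean over lines, with STM2457 left of DMSO within each line; points are libraries and bars group means. Noct and Exosc4 lie higher and Cnot10, Xrn2 and Dcp1b lower with STM2457 in every line, while Exosc10 and Exosc5 overlap between the arms in XEN.

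Of the 7 scaffold and regulatory subunits of CCR4-NOT, 1 fell in the mean over lines and 6 did not pass. Cnot10 (chromosome 9), whose protein pairs with CNOT11 in a module on the amino-terminal end of CNOT1, stood at 39.3, 47.0 and 41.4 CPM with STM2457 in XEN, against 48.1, 53.3 and 50.1 CPM with DMSO. TSC libraries held 58.3 and 60.7 CPM with STM2457, against 78.5 and 78.0 CPM with DMSO. In EpiSC the values were 61.6 and 61.7 CPM with STM2457 and 78.3 and 77.2 CPM with DMSO. No arm overlapped its control. The log2 fold changes were −0.25 ± 0.09, −0.39 ± 0.11 and −0.33 ± 0.11 in XEN, TSC and EpiSC, none of them called alone (edgeR adjusted p = 0.173, 0.0998 and 0.136), and in the mean Cnot10 fell by 0.33 ± 0.06 (adjusted p = 0.0018). The fall was kept when any 1 library was left out, with adjusted p up to 0.0125, and was lost with scaling to ribosomal protein genes (−0.25; adjusted p = 0.14). Its partner Cnot11 had a mean of −0.01, with STM2457 below DMSO in every XEN library and above it in every EpiSC library.

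The scaffold gene Cnot1 had fold changes of −0.30, −0.18 and −0.22 in XEN, TSC and EpiSC and a mean of −0.23 (edgeR adjusted p = 0.0849), which did not pass. Cnot3, which with CNOT2 forms the NOT module, had a mean of −0.22 (adjusted p = 0.132). Cnot2 had −0.25 in XEN (adjusted p = 0.121) and 0.04 and 0.09 in the other lines. Cnot9, a docking surface for adaptor proteins, had values from −0.13 to −0.09, and Cnot4, which encodes a ubiquitin ligase of the complex, from 0.04 to 0.14. With the block in the XEN libraries, Cnot1, Cnot2, Cnot3 and Cnot10 were called lower in XEN, and none of the 4 were with XEN fitted alone and the same block. As a group the 7 genes had median log2 fold changes of −0.25, −0.13 and −0.13 in XEN, TSC and EpiSC, beside 0 over all tested genes, and of −0.31, 0.01 and 0.00 with scaling to ribosomal protein genes.

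The 4 catalytic subunits of CCR4-NOT did not pass in any line or in the mean; 1 of them, Cnot8, had an unadjusted p under 0.05 in the mean and was called there by DESeq2, and 2, Cnot6 and Cnot7, had one in XEN. CNOT6 and CNOT6L are interchangeable nucleases of the CCR4 type, and CNOT7 and CNOT8 of the CAF1 type. Cnot8 stood at 101, 99.2 and 85.8 CPM with STM2457 in XEN, against 89.0, 84.0 and 84.7 CPM with DMSO. The TSC libraries stood at 146 and 142 CPM with STM2457, against 131 and 131 CPM with DMSO, and in EpiSC at 138 and 149 against 129 and 130.3 CPM. Its arms overlapped in XEN and not in the other lines, and its mean was 0.15 ± 0.06 (edgeR adjusted p = 0.11). Cnot6, Cnot6l and Cnot7 had −0.32, −0.40 and −0.20 in XEN, and values from −0.10 to 0.16 in TSC and EpiSC.

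The TOB and BTG proteins tether CAF1 nucleases to mRNAs, TOB1 and TOB2 also through the poly(A)-binding protein. None of the 4 genes passed in a line or in the mean by edgeR with all lines fitted together and no block. DESeq2 called 0 as well, and Btg3 alone reached an unadjusted p under 0.05, in XEN. Btg3 stood at 19.5, 24.4 and 19.4 CPM with STM2457 in XEN, against 27.1, 31.7 and 22.2 CPM with DMSO, so that the arms overlapped by 1 library. In TSC it stood at 38.5 and 41.7 CPM with STM2457, against 41.3 and 43.8 CPM with DMSO, and in EpiSC at 47.6 and 47.6 against 48.2 and 44.7 CPM. Its fold change in XEN was −0.35 ± 0.14 (adjusted p = 0.181), and with the block in the XEN libraries it was called lower (adjusted p = 0.0162), though not with XEN fitted alone and the same block. Exons of Btg3 overlap Cxadr on the other strand, and 13 of the 46 genes overlap a protein-coding gene in this way; no label says whether reads were counted by strand, so such genes can hold each other's reads. Tob1 and Tob2 had values from −0.02 to 0.23 over the lines. Btg1, which encodes an antiproliferative factor, had −0.14, 0.01 and 0.31 in XEN, TSC and EpiSC, with 35.1 and 35.7 CPM with STM2457 against 27.6 and 29.6 CPM with DMSO in EpiSC (adjusted p = 0.383).

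Of the 8 decapping genes, Dcp1b fell in the mean over lines and 7 did not pass. Dcp1b (chromosome 6) encodes a paralogue of DCP1A, the activator of the decapping enzyme DCP2, and it was the least abundant of the 46 genes per kb of exon in TSC and EpiSC. It stood at 3.22, 1.66 and 2.99 CPM with STM2457 in XEN, against 4.23, 5.18 and 4.88 CPM with DMSO. TSC libraries held 5.87 and 6.41 CPM with STM2457, against 7.56 and 6.68 CPM with DMSO. In EpiSC the values were 9.69 and 7.48 CPM with STM2457 and 10.4 and 10.1 CPM with DMSO. The arms did not overlap in any line, but in TSC and EpiSC the nearest libraries lay close together. The log2 fold changes were −0.85 ± 0.26 in XEN (edgeR adjusted p = 0.0751), −0.21 ± 0.22 in TSC and −0.26 ± 0.21 in EpiSC, and the mean fell by 0.44 ± 0.13 (adjusted p = 0.0379). The call was lost without any 1 of 9 libraries, namely each TSC library, both EpiSC DMSO libraries, EpiSC STM2457 library 2, XEN STM2457 library 2 and XEN DMSO library 3, with adjusted p from 0.0508 to 0.137 and fold changes from −0.48 to −0.36. Dcp1a, the more abundant paralogue, had −0.09, 0.21 and 0.06 in XEN, TSC and EpiSC.

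Dcp2, the decapping enzyme, had values from −0.07 to 0.11 over the lines. Edc4, the scaffold that holds DCP1 and DCP2 together, had −0.24, −0.29 and −0.18 in XEN, TSC and EpiSC and a mean of −0.24 (edgeR adjusted p = 0.0827). Ddx6, an RNA helicase that links CCR4-NOT to decapping, had −0.29, 0.04 and −0.18. Lsm1, of the ring that binds shortened tails, had 0.24, −0.02 and 0.23, and Patl1, which bridges that ring and the decapping enzyme, had −0.21, −0.13 and −0.08. Edc3, an enhancer of decapping, had −0.03, 0.24 and 0.15. None of these passed in a line with all lines fitted together and no block, and the medians of the 8 genes were −0.15, −0.03 and −0.07.

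Of the exonuclease genes, Xrn2 fell in the mean and Xrn1 did not pass. XRN1 digests decapped mRNA in the cytoplasm, and XRN2 acts in the nucleus on RNA downstream of cleavage sites. Xrn2 (chromosome 2) stood at 130.3, 108 and 122 CPM with STM2457 in XEN, against 138, 142 and 135 CPM with DMSO. The TSC libraries stood at 168 and 169.7 CPM with STM2457, against 202 and 202 CPM with DMSO, and in EpiSC at 119 and 126 against 141 and 137 CPM. No arm overlapped its control. The log2 fold changes were −0.21 ± 0.09, −0.26 ± 0.10 and −0.19 ± 0.11 in XEN, TSC and EpiSC, and the mean fell by 0.22 ± 0.06 (edgeR adjusted p = 0.0185). The call was lost without any 1 of the 4 TSC libraries, EpiSC DMSO library 1 or EpiSC STM2457 library 1, with adjusted p from 0.0507 to 0.0750, and without the filter on low counts (adjusted p = 0.0524). Xrn1 had −0.26, 0.12 and 0.07 in XEN, TSC and EpiSC.

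Of the 11 exosome genes, Exosc4 rose in XEN, and in the mean Exosc4 rose, Exosc5 and Exosc10 fell and 8 did not pass. The exosome is a ring of EXOSC4 to EXOSC9 capped by EXOSC1, EXOSC2 and EXOSC3, to which the nucleases DIS3, DIS3L or EXOSC10 attach. Exosc4 (chromosome 15) stood at 43.1, 41.1 and 47.1 CPM with STM2457 in XEN, against 34.2, 22.0 and 33.3 CPM with DMSO. In TSC it stood at 47.0 and 44.0 CPM with STM2457, against 34.6 and 35.8 CPM with DMSO. In EpiSC the values were 52.2 and 44.1 CPM with STM2457 and 37.7 and 40.2 CPM with DMSO. The arms did not overlap in any line. Exosc4 rose by 0.55 ± 0.14 in XEN (edgeR adjusted p = 0.0357) and had 0.37 ± 0.16 in TSC (adjusted p = 0.311) and 0.31 ± 0.16 in EpiSC (adjusted p = 0.381). The mean rose by 0.41 ± 0.09 (adjusted p = 0.00525), a call kept without any 1 library, with adjusted p up to 0.0295. The XEN call was lost without XEN STM2457 library 1 or 3, XEN DMSO library 2, or any 1 of the 8 TSC and EpiSC libraries, with adjusted p from 0.0532 to 0.0888 and fold changes from 0.38 to 0.56. It was kept with the block (adjusted p = 0.00017). Exons of Exosc4 overlap Oplah on the other strand over 19.8% of their length; Oplah averaged 159 counts per library against 625 for Exosc4, and its own fold changes were −0.43, −0.02 and 0.15 in XEN, TSC and EpiSC.

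Exosc10 (chromosome 4), the nuclear exonuclease of the exosome, stood at 45.7, 39.3 and 47.8 CPM with STM2457 in XEN, against 47.3, 48.4 and 55.4 CPM with DMSO. TSC libraries held 101 and 105 CPM with STM2457, against 140.3 and 127 CPM with DMSO, and in EpiSC at 85.0 and 90.7 against 109 and 94.1 CPM. The arms overlapped by 1 library in XEN and not in the other lines. In the mean it fell by 0.26 ± 0.07 (edgeR adjusted p = 0.0179), and the call was lost without TSC DMSO library 1, either TSC STM2457 library, EpiSC DMSO library 1 or EpiSC STM2457 library 1 (adjusted p from 0.0511 to 0.0796). Exosc5 (chromosome 7), a ring subunit, stood at 18.4, 22.9 and 18.0 CPM with STM2457 in XEN, against 19.6, 19.6 and 25.6 CPM with DMSO. The TSC libraries stood at 45.6 and 43.3 CPM with STM2457, against 55.2 and 56.0 CPM with DMSO, and in EpiSC at 36.9 and 35.9 against 42.1 and 45.8 CPM. Its arms overlapped in XEN alone. In the mean it fell by 0.24 ± 0.08 (adjusted p = 0.0486), close to the threshold, and the call was lost without any 1 of 11 libraries, all but XEN DMSO libraries 1 and 2 and XEN STM2457 library 2, with adjusted p from 0.0726 to 0.149.

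The other exosome genes did not pass by edgeR with TMM scaling, all lines fitted together and no block. Exosc2, a cap subunit, stood at 31.2, 30.1 and 31.2 CPM with STM2457 in XEN, against 27.4, 20.4 and 23.8 CPM with DMSO, without overlap. In EpiSC it lay the other way, at 74.1 and 75.3 CPM with STM2457 against 79.5 and 86.4 CPM with DMSO, and in TSC it stood at 59.0 and 56.7 against 53.5 and 56.6 CPM. Its fold changes were 0.37 ± 0.11 in XEN (edgeR adjusted p = 0.0716; 0.00762 with the block, not called with XEN fitted alone and the same block), 0.07 in TSC and −0.15 in EpiSC. Dis3l, the cytoplasmic catalytic subunit, had 0.19, 0.32 and 0.33 and a mean of 0.28 (adjusted p = 0.0509), and passed in the mean with scaling to ribosomal protein genes (adjusted p = 0.0332). Its nuclear paralogue Dis3 had values from −0.06 to 0.00. Exosc7, Exosc8 and Exosc9, ring subunits, had means of −0.19, −0.15 and −0.17, and the cap subunits Exosc1 and Exosc3 had 0.05 and 0.14. DESeq2 called Exosc8 lower in TSC (adjusted p = 0.0217) and in the mean (adjusted p = 0.0469). With the block in the XEN libraries, edgeR called Exosc8 lower in TSC (adjusted p = 0.00304). That fit also called Exosc7, Exosc8 and Exosc9 lower in the mean (adjusted p = 0.0218, 0.0201 and 0.0229), and Exosc3 and Dis3l higher. Exons of Exosc8, Exosc9 and Exosc3 overlap Supt20, Ccna2 and Dcaf10 on the other strand, over 2.05%, 10.8% and 4% of their length. Without the block, the mean log2 fold changes of these neighbours were −0.24, −0.29 and 0.25, each in the direction of the exosome gene. The part of such overlap was not tested.

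The 6 nonsense-mediated decay genes did not pass in any line or in the mean by edgeR with all lines fitted together. DESeq2 also called 0, and 0 reached an unadjusted p under 0.05. UPF1 is the helicase of the pathway, UPF2 and UPF3B link it to the exon junction complex, SMG1 phosphorylates UPF1, and SMG5 and SMG6 act on the phosphorylated form, SMG6 by cutting the mRNA. All fold changes lay between −0.13 and 0.19. Smg6, with the smallest adjusted p of the 6, stood at 85.6 and 84.3 CPM with STM2457 in TSC, against 77.9 and 70.8 CPM with DMSO. In XEN it stood at 53.5, 63.2 and 54.2 CPM with STM2457, against 59.2, 71.9 and 56.0 CPM with DMSO, and in EpiSC at 49.0 and 51.4 against 54.8 and 47.8 CPM. Its arms overlapped in XEN and EpiSC and not in TSC, where the fold change was 0.19 ± 0.13 (edgeR adjusted p = 0.566). With TSC fitted on its own libraries, Smg6 was called higher.

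The effect of STM2457 on the 46 genes was compared between lines. By the test of the difference over the 3 lines, 0 of the 46 genes were called by edgeR and 0 by DESeq2, while 3 reached an unadjusted p under 0.05 with edgeR; over all tested genes 0.00543% were called and 5.24% reached that unadjusted p. The 3 were Exosc2, Cnot2 and Exosc8, and the smallest adjusted p of the 46 genes was 0.882 by edgeR. Cnot2 had its negative fold change in XEN, whereas Exosc8 had −0.34 in TSC, −0.18 in EpiSC and 0.08 in XEN. With the block in the XEN libraries 2 genes were called, Exosc2 and Btg1, against 3.21% of all tested genes.

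Of 85 further decay genes listed beside the 46, 83 were tested, and Btg4 and Exosc6 had 0 counts in every library. Exons of Exosc6 overlap Aars on the same strand over 100% of their length, and Aars averaged 3993.5 counts per library. Reads from Exosc6 could therefore not be told apart from those of Aars, and its 0 does not show that it was silent. Of the 83, 5 rose and 0 fell in XEN (3.07% and 1.07% of all tested genes), 2 rose and 0 fell in TSC (0.836% and 0.13%) and 2 rose and 2 fell in EpiSC (1.28% and 0.402%). In the mean 8 rose and 5 fell (7.78% and 5.62% of all tested genes), and these 13 calls were 15.7% of the 83, beside 13.4% of all tested genes. Among the 8 were Ythdf1, Ythdf2 and Zfp36, which were known to move before the list was drawn up. The 2 rises in EpiSC were Ythdf2 and Zfp36, and Ythdf2 was also among those in XEN and TSC. The counts and shares of this list were therefore partly set in advance. Toe1, which encodes a nuclear deadenylase of the CAF1 family, stood at 42.9, 34.7 and 37.1 CPM with STM2457 in XEN, against 31.0, 20.1 and 20.6 CPM with DMSO. In TSC it stood at 45.8 and 41.4 CPM with STM2457, against 25.8 and 27.0 CPM with DMSO, and in EpiSC at 44.0 and 45.8 against 29.3 and 30.0 CPM. Its arms did not overlap in any line. Toe1 rose by 0.68 ± 0.15 in XEN and 0.72 ± 0.16 in TSC (edgeR adjusted p = 0.0142 and 0.0434) and by 0.67 ± 0.09 in the mean (adjusted p = 0.000157). In EpiSC it had 0.60 ± 0.16 (adjusted p = 0.0735). The XEN call was lost without XEN STM2457 library 1 or XEN DMSO library 3, with adjusted p up to 0.0685, with scaling to ribosomal protein genes (adjusted p = 0.0562) and with XEN fitted alone, and the TSC call without any 1 TSC or EpiSC library, with adjusted p up to 0.421. Exons of Toe1 overlap Tesk2 on the other strand over 40.7% of their length, and Tesk2 averaged 148 counts per library against 538 for Toe1. The fold changes of Tesk2 itself were 0.18, 0.56 and 0.28 in XEN, TSC and EpiSC, in the direction of Toe1, with none called. Its part in the rise of Toe1 was not tested.

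Pde12, a deadenylase of mitochondria, rose by 0.55 ± 0.13 in XEN (edgeR adjusted p = 0.023) and by 0.49 ± 0.08 in the mean (adjusted p = 0.000829). Smg8, a regulator of the SMG1 kinase, rose by 0.72 ± 0.14 in XEN (adjusted p = 0.00739) and by 0.58 ± 0.09 in the mean. Among the proteins that bring decay to their targets, Ythdf2 rose in each line, by 0.73, 0.57 and 0.47 in XEN, TSC and EpiSC, Ythdf1 rose by 0.51 in XEN, and Zfp36, which binds AU-rich elements, rose by 0.73 in EpiSC; these 3 were known to move before the list was drawn up. Skic2, the helicase that feeds the cytoplasmic exosome, fell by 0.52 ± 0.11 in EpiSC (adjusted p = 0.0297) and by 0.34 ± 0.06 in the mean, and its partner Skic3 fell by 0.18 in the mean (adjusted p = 0.0499). Pabpn1, the nuclear poly(A)-binding protein gene, fell by 0.68 ± 0.15 in EpiSC (adjusted p = 0.0344). Of these line calls, those of Pde12 and Ythdf1 in XEN were each lost without any 1 of 2 libraries, of Ythdf2 in TSC without any 1 of 4, and in EpiSC of Pabpn1, Ythdf2 and Zfp36 without any 1 of 8 and of Skic2 without any 1 of 7, with edgeR adjusted p up to 0.392. In the mean, the exosome cofactor Rbm7 and the release factor Gspt2 also rose (0.29 and 0.26), and C1d, a nuclear exosome cofactor, and the cap-binding genes Ncbp1 and Eif4e2 fell (log2 fold changes −0.31, −0.26 and −0.21). The calls of Eif4e2, Skic3, C1d, Ncbp1, Gspt2 and Zfp36 in the mean were lost without any 1 of 10, 12, 6, 4, 3 and 10 libraries, with adjusted p up to 0.184. With scaling to ribosomal protein genes, the XEN calls of Pde12, Smg8 and Ythdf1, the EpiSC calls of Pabpn1, Skic2, Ythdf2 and Zfp36, and the calls of Skic2, Skic3, C1d, Ncbp1, Eif4e2 and Zfp36 in the mean were lost too. With XEN fitted alone, those of Pde12, Smg8, Ythdf1 and Ythdf2 in XEN were lost.

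The second question was how the 46 genes differed between the lines in DMSO. Btg1 was higher in XEN and Noct higher in TSC and EpiSC, with the largest fold changes of all 46 genes. Btg1 stood at 53.2 to 54.0 CPM in TSC and 27.6 to 29.6 CPM in EpiSC, against 417 to 500.4 CPM in XEN. The log2 differences were −3.06 ± 0.16 for TSC against XEN and −3.97 ± 0.17 for EpiSC against XEN (edgeR adjusted p = 3.08e-11 and 2.76e-12). Noct, by contrast, was higher by 3.88 ± 0.15 in TSC and by 2.80 ± 0.15 in EpiSC than in XEN (adjusted p = 6.29e-13 and 4.42e-11), and the difference of EpiSC against TSC was −1.07 ± 0.14. Per kb of exon, Noct averaged 10.6 ± 1.06 CPM in TSC, 5.04 ± 0.409 in EpiSC and 0.723 ± 0.0995 in XEN (SD), in an order without overlap.

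In number, 33 of the 46 genes differed between TSC and XEN (18 higher and 15 lower in TSC; 72.5% of all tested genes, 36.5% higher and 36% lower), 37 between EpiSC and XEN (23 higher, 14 lower; 71.7%, 36.6% higher and 35.1% lower) and 19 between EpiSC and TSC (11 higher, 8 lower; 54.4%, 27.4% higher and 27% lower). The directions depended on the scaling. XEN libraries held 12.0% to 16.0% of their counts in mitochondrial rRNA, against 0.0366% to 0.0505% in TSC and EpiSC. This content, library totals and replicate spread all set XEN apart and cannot be told apart from line. Their part in the differences from XEN was not tested. With scaling to ribosomal protein genes the median of all genes moved by −1.04 for TSC against XEN, −0.78 for EpiSC against XEN and 0.28 for EpiSC against TSC, and the calls became 2 higher and 35 lower, 4 higher and 28 lower, and 17 higher and 2 lower (14.6% and 61%, 18.8% and 54.3%, and 34% and 17% of all tested genes). Noct, Exosc8 (TSC against XEN) and Noct, Exosc2, Exosc9 and Upf3b (EpiSC against XEN) were higher under each scaling.

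**Figure D3:**
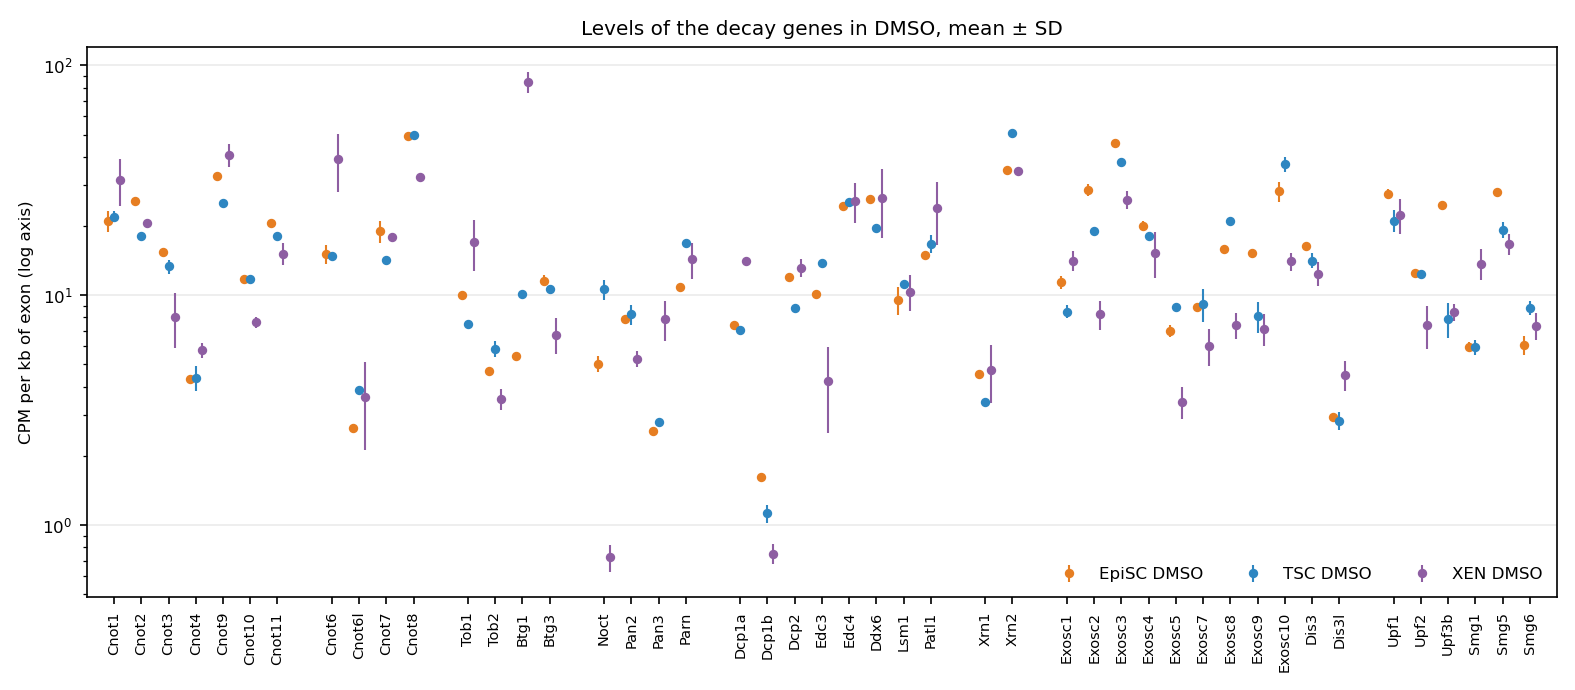
Mean ± SD of CPM per kb of exon in DMSO for the 46 genes, on a log axis (n = 2 libraries in EpiSC and TSC, 3 in XEN), ordered by role. Btg1 stands at 84.7 in XEN and Noct at 0.723, the ends of the XEN range, while most genes lie within a few fold of each other across the lines.

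Besides Btg1, the members with the largest falls of TSC and EpiSC against XEN were the same 3: Pan3 at −1.48 and −1.61, Cnot6 at −1.40 and −1.37 and the kinase gene Smg1 at −1.21 and −1.20, with edgeR adjusted p of at most 2.03e-06, and all were lower under the ribosomal protein scaling too. Cnot6 stood at 97.8 and 97.5 CPM in TSC and 93.2 and 107 CPM in EpiSC, against 203, 341 and 232 CPM in XEN. Beside Noct, the largest rises of TSC against XEN were Edc3 at 1.71, Exosc8 at 1.5 and Exosc10 at 1.40. Edc3 and Exosc10 lost the call with the other scaling (adjusted p = 0.118 and 0.0781). Those of EpiSC against XEN were Exosc2 at 1.80, Upf3b at 1.54 and Edc3 at 1.26, of which Edc3 lost the call (adjusted p = 0.251). Of the 18 members called higher in TSC than in XEN, 12 had a negative fold change with the other scaling and 7 of these were called lower, among them Cnot8 (0.61 with TMM and −0.48 with the other scaling, edgeR adjusted p = 2.73e-05 and 0.0104) and Cnot10 (0.63 with TMM and −0.47 with the other). Of the 23 called higher in EpiSC than in XEN, 12 likewise turned and 5 were called lower, among them Cnot2 (0.32 with TMM and −0.48 with the other, adjusted p = 0.00574 and 0.00869). Exons of Edc3 overlap Clk3 on the other strand over 22.1% of their length.

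Of the 11 exosome genes, 6 were higher and 2 lower in TSC than in XEN (36.5% and 36% of all tested genes), and 9 were higher and 2 lower in EpiSC than in XEN (36.6% and 35.1%); Exosc1 and Dis3l were the 2 lower genes each time. With scaling to ribosomal protein genes the counts became 1 higher and 7 lower (14.6% and 61% of all tested genes), and 2 higher and 4 lower (18.8% and 54.3%), and the medians of the 11 genes were −0.54 and 0.02, beside −1.04 and −0.75 over all tested genes. Exosc2 stood at 53.5 and 56.6 CPM in TSC and 79.5 and 86.4 CPM in EpiSC, against 27.4, 20.4 and 23.8 CPM in XEN.

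Between EpiSC and TSC, Upf3b, the X-linked gene among the 46, differed most. It stood at 101 and 95.6 CPM in EpiSC, against 27.7 and 35.5 CPM in TSC, and at 32.3, 31.9 and 37.1 CPM in XEN. EpiSC were higher than TSC by 1.64 ± 0.16 (edgeR adjusted p = 2.18e-07). Exosc9 at 0.91, Exosc2 at 0.59 and Smg5 at 0.54 followed. Exons of Exosc9 overlap Ccna2 on the other strand, which averaged 3623 counts per library against 720.5 for Exosc9. Lower in EpiSC than in TSC were Noct at −1.07, Btg1 at −0.91 and Parn at −0.64, of which Parn lost the call with the other scaling (adjusted p = 0.212), and Cnot6l at −0.54 did not pass (adjusted p = 0.0873).

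Several members come in pairs of related genes, so their shares were compared per kb of exon. Xrn1 and Xrn2, and Dis3l and Dis3, act in the cytoplasm and the nucleus, so their shares do not describe exchange within a complex. Btg1 made up 93.4% ± 1.61 of the sum of Btg1 and Btg3 with STM2457 and 92.5% ± 1.81 with DMSO in XEN (SD, n = 3 each). In TSC the share was 50.6% ± 0.355 with STM2457 and 49.0% ± 1.28 with DMSO, and in EpiSC 36.1% ± 0.276 and 31.9% ± 2.21 (SD, n = 2 each). The lines therefore did not overlap, and the arms overlapped in XEN alone. Tob1 took 82.4% of Tob1 and Tob2 in XEN, 56.2% in TSC and 68.1% in EpiSC, all in DMSO. Cnot6 took most of Cnot6 and Cnot6l everywhere, at 91.7% in XEN, 79.2% in TSC and 85.0% in EpiSC in DMSO.

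The CAF1 pair leaned to Cnot8. Cnot7 took 30.0% ± 1.81 of Cnot7 and Cnot8 with STM2457, against 35.4% ± 1.38 with DMSO in XEN, and the arms did not overlap. In EpiSC it took 24.5% ± 1.05 with STM2457, against 27.7% ± 2.15 with DMSO, and in TSC 20.7% ± 1.61 against 22.3% ± 0.803, where the arms overlapped. Dcp1a took 97.0% ± 0.839 of Dcp1a and Dcp1b with STM2457, against 94.9% ± 0.407 with DMSO in XEN, 89.3% ± 0.90 against 86.2% ± 0.945 in TSC and 85.1% ± 2.64 against 82.1% ± 0.733 in EpiSC. Its share lay higher with STM2457 in every library of each line. Dis3 took 70.8% ± 1.82 of Dis3 and Dis3l with STM2457, against 73.5% ± 0.754 with DMSO in XEN, 79.3% ± 0.769 against 83.2% ± 2.31 in TSC and 81.2% ± 2.30 against 84.7% ± 0.605 in EpiSC. Here the share lay lower with STM2457 in every library of each line. Xrn1 took 8.10% ± 0.10 of Xrn1 and Xrn2 with STM2457, against 6.34% ± 0.151 with DMSO in TSC, 13.5% ± 0.0148 against 11.5% ± 0.0347 in EpiSC, and 11.7% ± 1.24 against 11.9% ± 2.92 in XEN. These shares are descriptions and were not tested.

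**Figure D4:**
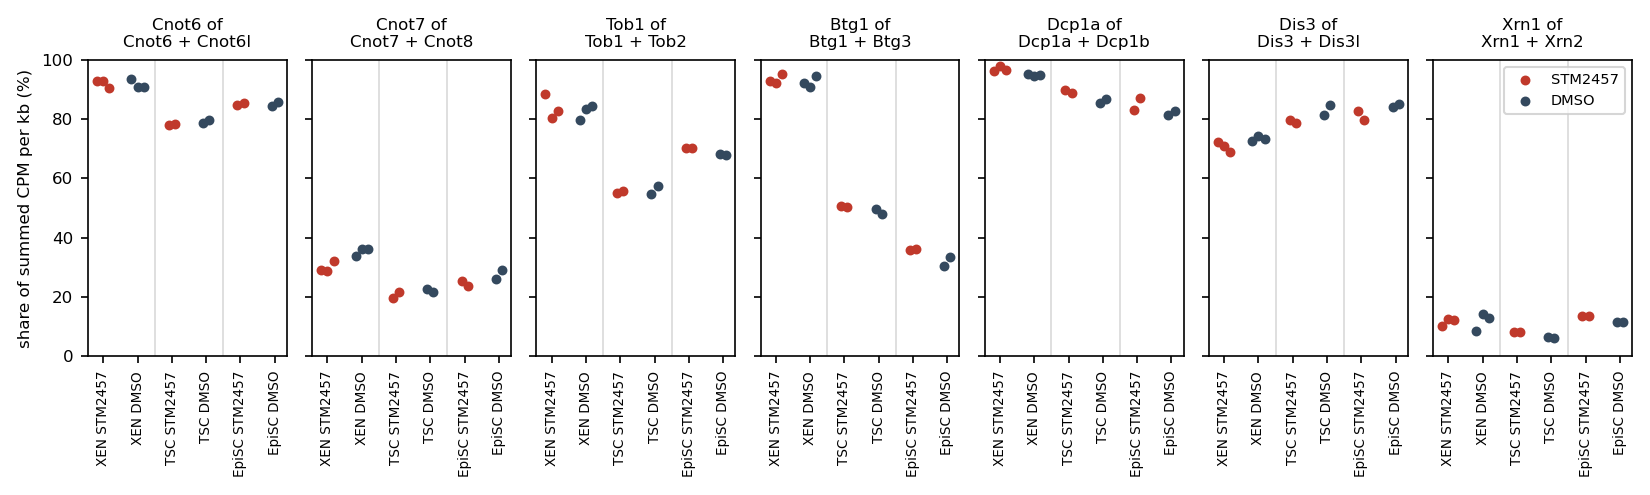
Share of the first member of each paralogue pair in the summed CPM per kb, in percent, for every library, with STM2457 left of DMSO within each line. The share of Btg1 is 93.4% and 92.5% in XEN and 36.1% and 31.9% in EpiSC, and Dcp1a lies higher and Dis3 lower with STM2457 in each line.

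Transcript structure was set beside the responses because m6A is deposited away from exon junctions, mainly in long exons and near stop codons, at sites that fit the motif DRACH (D for any base but C, R for a purine, H for any base but G) and often hold GGAC. The longest coding transcripts of the 46 genes had a median of 3.41 junctions per kb, beside 2.76 over 14330 coding tested genes, and a median longest exon of 1342 bases, beside 1522.5. Their medians of GGAC per kb were 3.76 and 4.19, and of DRACH per kb 20.1 and 20.0. Noct stood at the end of the range: its longest exon of 7869 bases was the longest among the 46 genes and its 0.102 junctions per kb the fewest, at percentiles 98.8 and 3.58 of coding tested genes. Its 4.29 GGAC per kb lay at percentile 52.0. Members not called in a line or in the mean had similar structure. The longest exons of Dcp2 and Cnot6l had 7404 and 7060 bases, and Btg1, Tob2 and Tob1 had 0.200, 0.241 and 0.437 junctions per kb. The genes that fell in the mean had 8.60 junctions per kb in Exosc10, 8.44 in Xrn2, 6.66 in Cnot10, 3.57 in Exosc5 and 2.41 in Dcp1b. These lay at percentiles 99.3, 99.1, 94.7, 63.0 and 44.1 of coding tested genes. Parn, Exosc8 and Exosc9, not called by edgeR with all lines fitted together and no block, had 7.91, 7.69 and 6.80. Exosc4, which rose, had 1.11, at percentile 20.1. The relation of structure to response was not tested. These are annotated features, and m6A itself was not measured in the libraries used here.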

How the data were processed

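RNA-seq was made from TRIzol-extracted RNA with a stranded total RNA kit, per the labels. The authors deposited raw read counts per gene; per the submitters' processing notes these involved FastQC, Trim Galore, STAR and featureCounts on GRCm39, with versions not given in the sources used here. All 55416 rows were read and 18430 passed edgeR's filter (minimum count 10, minimum total 15). The 14 libraries were fitted as 6 groups in 1 model with edgeR 4.0.16's quasi-likelihood test (robust, TMM) in R 4.3.3 and Benjamini-Hochberg adjustment at 0.05; the standard error is the log2 fold change over the root of F. The mean effect averages the 3 lines. Gene names, chromosomes and exon lengths came from GENCODE M21. Values per library are given for each member called in a line, in the mean or in the difference between lines, and for the member with the smallest p of a role without calls; for lines in DMSO the 4 members with the largest fold change in each direction are named, and of the other decay genes those called, at most 4 per list and contrast. Values per library of Parn, Exosc2, Btg1, Cnot6 and Upf3b were added after their values were seen. The members and lists were chosen with earlier results of these data known. On simulated counts the fit gave nearly all changed genes their right sign, and the share of false calls lay above the adjusted p threshold in the single lines. In XEN, same-numbered libraries deviated together (correlations 0.220, 0.376 and 0.337), so those numbers were taken as pairs. The alternatives tried were DESeq2 1.42.0, size factors and ribosomal protein scaling, no filter, a required fold of 1.5, replicate blocks, lines fitted alone and leaving out each library.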

Additional observations from a re-analysis of the deposited data

How the results depend on the processing

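Of the 46 genes, DESeq2 called 7 in XEN, 5 in TSC, 2 in EpiSC and 11 in the mean over lines. Scaling to ribosomal protein genes left 0 in XEN and 3 in the mean. A replicate block in all lines gave 8, 7, 3 and 16, and a block in the XEN libraries gave 11, 9, 6 and 18, with 2 for the difference between lines. In TSC and EpiSC the replicate number did not pair the libraries (correlations −0.00269 and −0.0120). Lines fitted alone gave 0, 14 and 17 in XEN, TSC and EpiSC; XEN alone with the block, chosen after seeing the data, gave 2. A fold minimum of 1.5 left 0 in each line and in the mean, and 12, 18 and 4 for TSC against XEN, EpiSC against XEN and EpiSC against TSC in DMSO. Calls over all tested genes moved with the fit too: in the mean 28.7% were called with the block in the XEN libraries and 13.4% without it. Counts of the 46 printed in this section without such a share describe the fit and are no result about the 46 genes. The cause of these changes was not tested.

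Leaving out 1 library gave 0 (without XEN STM2457 library 1) to 7 (without XEN DMSO library 1) in XEN, 0 to 2 in TSC, 1 in EpiSC, 3 to 11 in the mean, 28 to 35 for TSC against XEN, 33 to 38 for EpiSC against XEN and 12 to 24 for EpiSC against TSC. Where 1 library remained in an arm, it was assumed to vary like the other groups. Reversals of the STM2457 log2 fold changes were followed for members called in a line or in the mean. In roles without calls, the member with the smallest p was followed. Those that reversed were uncalled: scaling to ribosomal protein genes gave 0.0559 for Btg3 in TSC and 0.102 for Smg6 in EpiSC. Other members changed sign under that scaling too, among them Cnot9 (−0.127 to 0.0111) and Exosc1 (−0.122 to 0.0206) in TSC. Over left-out libraries, Exosc5 in XEN ranged from −0.256 to 0.0105, Btg3 in EpiSC from −0.0169 to 0.0925, Smg6 in EpiSC from −0.128 to 0.0713 and Smg6 in the mean from −0.0214 to 0.0485. In DMSO, scaling to ribosomal protein genes turned the sign of 12 of 18 genes called higher in TSC against XEN, of which 7 were called lower (Cnot8, Cnot10, Cnot11, Pan2, Xrn2, Exosc3 and Exosc7), and of 12 of 23 in EpiSC against XEN, of which 5 were called lower (Cnot2, Cnot11, Tob2, Exosc4 and Dis3). It turned 0 called genes in EpiSC against TSC.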
